A study of Mus musculus with 4 samples.

Results

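The nuclear genes of oxidative phosphorylation were followed through a comparison of sympathetic ganglia from mice. They were taken by name alone, as the rows of the deposited table whose symbol begins with Nduf, Uqcr, Cox4 to Cox8 or Atp5, or is Sdha, Sdhb, Sdhc or Sdhd. This gave 90 of the 21937 genes listed. By prefix, 42 belong to complex I, 4 to complex II, 8 to complex III, 19 to complex IV and 17 to complex V. The prefix also caught 9 genes that encode no complex subunit. These are the complex I assembly factors Ndufaf1, Ndufaf2, Ndufaf3 and Ndufaf4, the supercomplex factor Cox7a2l, the Ndufa4 relative Ndufa4l2, Atp5s, Atp5sl and Cox4nb, a gene beside Cox4i1 whose current symbol is Emc8. Ndufa4 was named as a complex I gene and is now placed in cytochrome c oxidase, and it is kept here under its prefix.

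Oxidative phosphorylation makes most of the ATP of a neuron. Complexes I and II pass electrons from NADH and succinate to ubiquinone, complex III passes them on to cytochrome c and complex IV to oxygen, and complex V, the ATP synthase, uses the resulting proton gradient to make ATP. Mitochondrial DNA encodes a small part of the subunits of complexes I, III, IV and V, and the nucleus encodes all others, including all of complex II. Sympathetic neurons carry long axons and fire tonically, and depend on this supply. Several subunits of complex IV exist as a widespread form and a form typical of heart, skeletal muscle or brown fat.

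RNA was sequenced from pooled ganglia, superior cervical with stellate, taken from adult mice at postnatal day 60, in 4 pools of 1 genotype each. The Gata3 mutant carried B6.126/SV129Gata3flox/flox::C57BL/6P1DBhCreERT2 and was pooled from 32 ganglia of 8 mice, and the Hand2 mutant carried B6.129/SVJHand2flox/del::C57BL/6P1DbhCreERT2 and was pooled from 16 ganglia of 4 mice. The Gata3 control carried B6.129/SV129Gata3flox/+::C57BL/6P1DbhCreERT2 and the Hand2 control B6.129/SVJHand2flox/+::C57BL/6P1DbhCreERT2, each pooled from 16 ganglia of 4 mice. All 4 genotypes held a tamoxifen-dependent Cre driven by Dbh, the gene of dopamine beta-hydroxylase, and the series' design text gives 10 days of tamoxifen for mutants and controls alike, so that recombination is confined to cells that express Dbh. The same text describes the Gata3 mutant ganglia as rudiments in which Gata3 was not lower, and their remaining cells as having escaped recombination.

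The table analysed here holds 1 comparison of 2 columns and names no line. Here the second group mean is termed side B, and the control column side A. Its headings set mutant against control, which makes side B the likely mutant side, but the mutant heading stands over the mean of both columns and no genotype was assigned. Side B summed to 19135221 and side A to 19343986. The values are treated as normalised group means with no stated unit, the depth behind them is unknown, and with 1 column a side no difference has a replicate check. "Higher" and "lower" therefore describe these columns, and no p-value was computed from them. Hand2 had 2001 on side B and 4749 on side A, and Gata3 had 1050 and 1105. The sides also differed in sex-linked transcripts, with Xist, the RNA of the inactive X chromosome, at 1595 on side B and 114 on side A, and the Y-linked Ddx3y listed at 0 on side B and at 1206 on side A. The sex of the animals is not in the labels, and the part of sex in the values that follow was not tested.

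The sympathetic markers of the labelled tissue were abundant on both sides, with Th, which encodes tyrosine hydroxylase, at 44280 on side B and 47123 on side A. The 8 sympathetic markers summed to 302087 on side B and 349645 on side A, and 6 of the 8 were lower on side B. The 12 macrophage markers summed to 3928 and 2909 and were all higher on side B, and the 10 glial markers summed to 87950 and 74623, with 9 higher. The 14 muscle fibre markers summed to 157 on side B and 2114 on side A, and Mb, the myoglobin gene, was listed at 0 on side B. All 10 of mean value at least 50 were lower. None of the 14 exceeded 39 on side B, so these 10 reached that mean value only through side A. Actn3, Myh4, Pvalb and Ryr1, below it, were lower as well. Of the 10 sensory neuron markers, some of which sympathetic neurons also express, all 6 of that mean value were lower on side B. Of these, Slc17a6, with 7 on side B and 128 on side A, reached it only through side A. Among the sensory markers below it, Calca was higher on side B, with 33 and 25. Trpa1 and Trpv1 were lower, and Mrgprd was listed at 0 on both sides. The 10 adipocyte markers summed to 3767 on side B and 4013 on side A. Among the 8 of that mean value, 5 were lower, 2 higher and 1 equal. Cfd, of the higher ones, had 903 on side B and 457 on side A. The 6 red cell markers summed to 822 on side B and 682 on side A. Of the red cell markers the 4 globin genes were listed at 0 on both sides, so that this sum is Alas2 and Bpgm alone. In bulk tissue, fewer cells of a type and less RNA per cell cannot be told apart. The part of these shifts in the values of the oxidative phosphorylation genes was not tested.

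The oxidative phosphorylation genes were slightly higher on side B as a group, but not when set against genes of like transcript length. Of the 90, 83 had a mean value of both columns of at least 50 and 7 did not. The log2 ratio of side B to side A was computed with a pseudocount of 1. It was above 0 in 69 of the 83 (83.1%), below 0 in 13 and exactly 0 in Cox4nb, whereas of all 12043 genes of that mean value 50.3% were above 0 and 48.8% below. The median log2 ratio was 0.089 over the 83 genes and 0.0026 over all 12043. After the correction for transcript length, 38 of the 83 lay above 0, against 50% of all genes, and the median was -0.013. Summed, the 90 genes had 213089 on side B and 205231 on side A, which is 1.11% and 1.06% of the column sums.

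The differences of single genes were small. At a log2 ratio of at least 0.32 either way, a 25% difference taken over the lower value, 2 of the 83 were higher on side B, Ndufa12 and Ndufa5, and 1 was lower, Cox7a1. Over all genes the same rule took 4.35% as higher and 5.62% as lower. No gene of the 83 reached 2-fold, against 0.0332% of all genes higher and 0.448% lower. The SD of the log2 ratio was 0.12 across the 83 genes and 0.311 across all genes of that mean value. The authors' deposited table gives a p to 89 of the 90, none of them under 0.05, against 2.05% of all 16990 genes with a p, and an adjusted p of 1 to each of the 89, against 0.365% of genes with an adjusted p under 0.05. Each genotype had 1 pool, so the authors' p-values do not measure variation between animals of a genotype. At a mean value of at least 500, 75 of the 90 were left, of which 64 were higher and 10 lower, against 49.4% and 50.2% of all genes of that value. Of the 75, 2 were higher and 0 lower by 25%, against 1.07% and 2.4%, and none reached 2-fold, against 0.0147% higher and 0.147% lower.

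**Figure D1:**
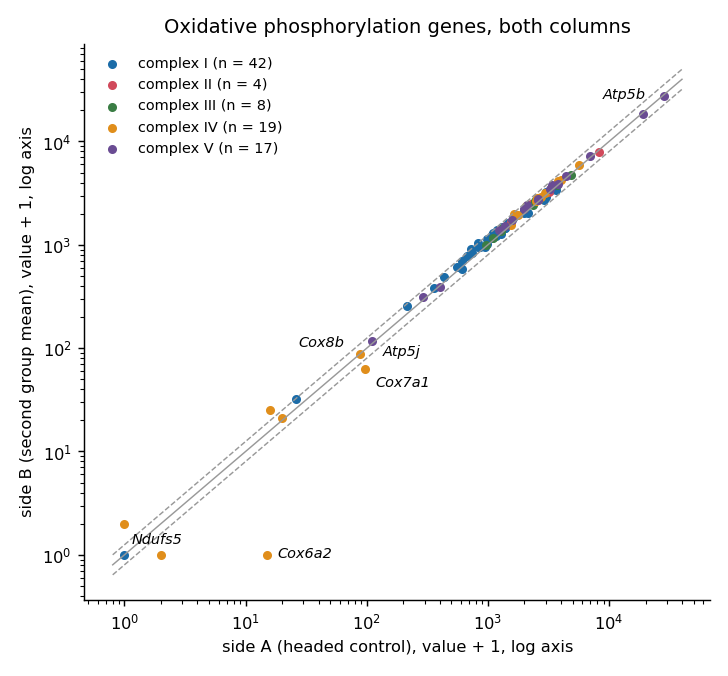
Value on side B (vertical axis) against side A (horizontal axis) for the 90 oxidative phosphorylation genes, both as value + 1 on log axes, coloured by complex. The solid line marks equal values and the dashed lines a 25% difference either way. Nearly all genes lie between the dashed lines, from Ndufs5 at 0 on both sides to Atp5b at 28519 on side A. Cox7a1, Cox6a2 and Cox8c lie below the dashed lines and Ndufa12, Ndufa5, Cox6b2 and Cox7b2 above.

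Complex I, the NADH dehydrogenase, had the highest median of the 5 complexes, 0.128 over 40 genes, with 34 higher and 6 lower on side B. The accessory subunits surround the catalytic core, and 29 of them had a median of 0.16 and 26 higher. Ndufa12, an accessory subunit that replaces the assembly factor Ndufaf2 late in assembly, had 915 on side B and 724 on side A, a log2 ratio of 0.34. Ndufa5, an accessory subunit of the peripheral arm, had 1039 on side B and 828 on side A, a log2 ratio of 0.33. The authors' deposited table gives them p of 0.0856 and 0.0821. Ndufaf2 itself had 252 on side B and 212 on side A, a ratio of 1.19. All 3 genes had their higher value on side B.

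The 7 core subunits, which carry the flavin and iron-sulphur clusters, had a lower median of 0.087, with 5 higher and 2 lower. Ndufs1, the largest core subunit, had 3389 on side B and 3654 on side A, a log2 ratio of -0.11, the lowest of complex I. Ndufv1, which binds NADH, had 2910 and 2992, and its partner Ndufv2 had 2275 and 2022. The Ndufv pair thus lay on opposite sides of equality, and neither gene differed by 25%. Among accessory subunits the lower ones were Ndufa10 with 2720 and 2903, Ndufa9 with 2026 and 2135, and Ndufb6 with 1275 and 1277. The 10 Ndufb genes, of the membrane arm, had a median of 0.14, and 9 of the 10 were higher on side B. The 4 assembly factors had a median of 0.128, and Ndufaf4 was the 1 below 0, with 584 on side B and 607 on side A.

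Complexes II and III had the lowest medians. Complex II, succinate dehydrogenase, also serves the tricarboxylic acid cycle, and its 4 genes had a median of 0.075. Sdha, the flavoprotein subunit, had 7917 on side B and 8189 on side A, while Sdhb, which holds the iron-sulphur clusters, had 3270 and 3176. The membrane anchors Sdhc and Sdhd had 1664 and 1543, and 2506 and 2281. The 8 genes of complex III, the cytochrome bc1 complex, had a median of 0.066, with 7 higher, but against genes of like transcript length 1 of the 8 lay above 0, with a median of -0.043. The core protein gene Uqcrc1 had 4700 on side B and 4883 on side A, and its partner Uqcrc2 had 3774 and 3701. The small subunits Uqcr10, at 1415 and 1248, and Uqcrh, at 2652 and 2440, had the highest ratios of complex III, 1.13 and 1.09. In both complexes the gene below 0 was a large subunit, Sdha in complex II and Uqcrc1 in complex III.

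**Figure D2:**
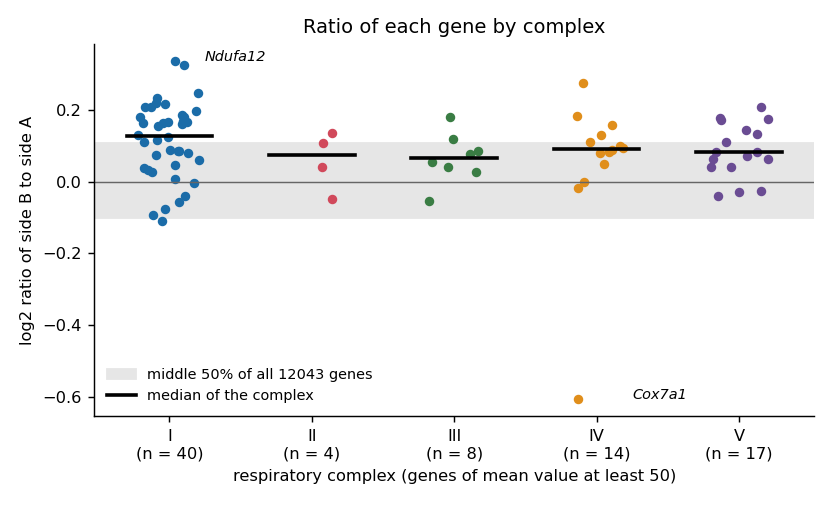
Log2 ratio of side B to side A (vertical axis) for the 83 genes of mean value at least 50, by complex (horizontal axis), with 1 point a gene, sideways spread for legibility and a bar at the median. The grey band holds the middle 50% of all 12043 genes. The 5 medians lie above 0. That of complex I, 0.128, lies above the band, whose upper edge is at 0.109, and the others, 0.066 to 0.092, lie inside it. Cox7a1 stands far below at -0.61.

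Complex IV, cytochrome c oxidase, held the widest range. All 10 tested subunits of its widespread form were higher on side B, with a median of 0.098, but against genes of like transcript length 2 of the 10 lay above 0, with a median of -0.029. Cox5b, which binds zinc, had 1989 on side B and 1643 on side A, a ratio of 1.21, the highest of complex IV among genes of mean value at least 50, and the authors' deposited table gives it a p of 0.0788. Cox4i1, a subunit that binds ATP and adjusts the rate of the enzyme, had 5968 and 5635. Cox6a1 had 4245 and 4017, Cox6b1 had 4112 and 3811, and Cox7b had 2907 and 2733. Cox7a2l, which links complexes III and IV into supercomplexes, had 2845 on side B and 2550 on side A, a log2 ratio of 0.16. The 10 widespread subunits lay in a narrow span of log2 ratios, 0.05 to 0.28.

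The isoforms typical of muscle and brown fat were low, and each had its lower value on side B, by 1 unit in Cox8b. Cox7a1 had 62 on side B and 95 on side A, a log2 ratio of -0.61, whereas its widespread counterpart Cox7a2 had 2362 and 2081, a log2 ratio of 0.18. Cox8b had 86 and 87, beside Cox8a with 3183 and 2981. Cox6a2 was listed at 0 on side B and had 14 on side A, so no ratio is given, and the authors' deposited table gives it a p of 0.0535, the lowest of the 90. The authors' deposited table gives Cox7a1 a p of 0.259.

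Marker genes of both tissues were present beside these isoforms. Acta1, the skeletal alpha-actin gene, had 17 on side B and 456 on side A, and Atp2a1, a sarcoplasmic calcium pump gene, had 5 and 300. Ucp1, the uncoupling protein of brown fat, had 327 on side B and 371 on side A, and Cidea, a lipid droplet gene of brown fat, had 471 and 598. The 10 brown fat markers summed to 2150 on side B and 2258 on side A, with 3 higher and 3 lower among the 6 of mean value at least 50, and Cpt1b was listed at 0 on both sides. Cox6a2 and Cox7a1 were lower on side B, as were the muscle markers and the brown fat markers Ucp1, Cidea and Dio2. The brown fat markers Ebf2, Fabp3 and Prdm16 were higher there, and Cox8b was nearly equal on both sides. The part of either tissue in these values was not tested.

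The other alternative isoforms were at the bottom of the table. Cox4i2, the form of Cox4 known from lung and hypoxia, had 20 on side B and 19 on side A. Cox6b2, a form known from testis, had 24 and 15. Ndufa4l2, induced by hypoxia in other cells, had 31 and 25. Cox7b2 had 1 and 0 and Cox8c 0 and 1. With Cox6a2, listed at 0 on side B, and Ndufs5, a complex I subunit gene listed at 0 on both sides, these are the 7 genes under the mean value of 50.

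**Figure D3:**
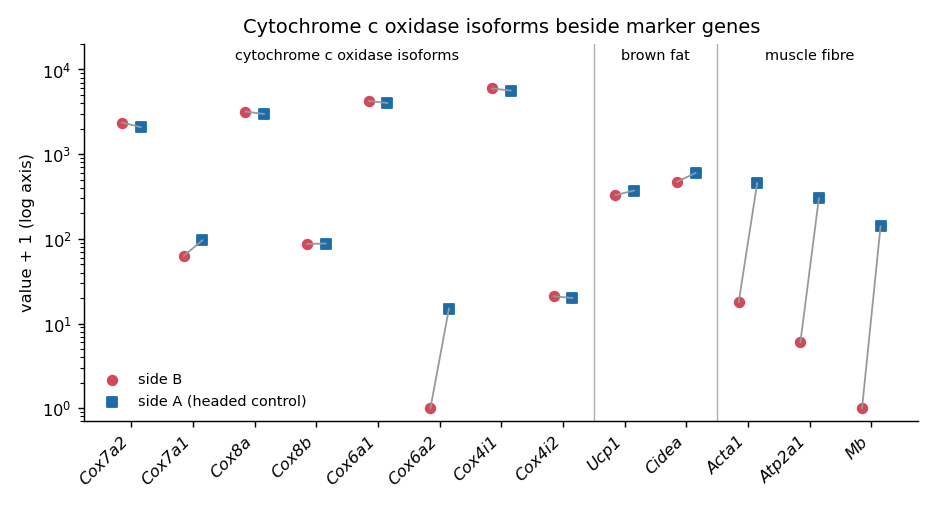
Value + 1 on a log axis (vertical) for isoform pairs of cytochrome c oxidase, 2 brown fat markers and 3 muscle fibre markers (horizontal), with side B as circles at the left of each pair of points and side A as squares. The widespread isoforms lie between 2081 and 5968 on both sides, the alternative isoforms between 0 and 95, and the 3 muscle markers drop to 17 or less on side B.

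The promoter windows of these genes differ in base content between the isoforms, and not always in the same direction. They are shown for the Cox7a and Cox8 pairs, for Cox6a1, whose window holds a match to NRF1 and to the ETS core, and for Ndufa12 and Ndufa5, the 2 genes at least 25% higher on side B. Each window runs over 300 bases around the RefSeq start, in build GRCm38.p6, 5' to 3' on the gene's strand, and capitals mark motif matches on either strand. Ndufa5 has 2 listed windows, of which the 1 listed first is shown.
Cox7a1 (chr7:30183921-30184220, plus strand): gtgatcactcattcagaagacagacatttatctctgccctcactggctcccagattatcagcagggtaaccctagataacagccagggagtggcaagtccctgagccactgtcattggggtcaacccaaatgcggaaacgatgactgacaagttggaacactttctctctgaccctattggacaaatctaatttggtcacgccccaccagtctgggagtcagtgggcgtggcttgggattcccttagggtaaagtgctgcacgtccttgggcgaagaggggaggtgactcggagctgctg
Cox7a2 (chr9:79759804-79760103, minus strand): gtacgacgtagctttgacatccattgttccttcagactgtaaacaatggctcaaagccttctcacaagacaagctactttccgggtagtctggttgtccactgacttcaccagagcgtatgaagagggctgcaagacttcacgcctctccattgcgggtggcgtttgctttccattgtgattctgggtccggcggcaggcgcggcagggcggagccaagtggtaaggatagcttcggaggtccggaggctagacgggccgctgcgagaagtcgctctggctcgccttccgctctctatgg
Cox8b (chr7:140900397-140900696, minus strand): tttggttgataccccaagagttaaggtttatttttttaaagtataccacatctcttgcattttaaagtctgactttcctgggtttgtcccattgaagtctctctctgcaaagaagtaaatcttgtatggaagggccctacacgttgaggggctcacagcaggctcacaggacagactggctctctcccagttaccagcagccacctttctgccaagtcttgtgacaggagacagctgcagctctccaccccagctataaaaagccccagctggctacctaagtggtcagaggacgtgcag
Cox8a (chr19:7217567-7217866, minus strand): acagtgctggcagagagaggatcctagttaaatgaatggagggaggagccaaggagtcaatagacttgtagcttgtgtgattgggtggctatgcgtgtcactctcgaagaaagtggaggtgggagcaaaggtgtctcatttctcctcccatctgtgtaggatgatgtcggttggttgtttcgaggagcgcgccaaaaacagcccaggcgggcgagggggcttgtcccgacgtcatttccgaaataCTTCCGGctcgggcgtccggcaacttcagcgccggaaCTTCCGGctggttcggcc
Cox6a1 (chr5:115348909-115349208, minus strand): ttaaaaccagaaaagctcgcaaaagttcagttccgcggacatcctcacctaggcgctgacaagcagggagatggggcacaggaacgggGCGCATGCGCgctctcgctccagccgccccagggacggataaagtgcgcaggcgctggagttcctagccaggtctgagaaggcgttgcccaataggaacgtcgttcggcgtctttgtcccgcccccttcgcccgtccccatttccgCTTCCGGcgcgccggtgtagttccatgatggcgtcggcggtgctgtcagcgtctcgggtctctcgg
Ndufa12 (chr10:94198785-94199084, plus strand): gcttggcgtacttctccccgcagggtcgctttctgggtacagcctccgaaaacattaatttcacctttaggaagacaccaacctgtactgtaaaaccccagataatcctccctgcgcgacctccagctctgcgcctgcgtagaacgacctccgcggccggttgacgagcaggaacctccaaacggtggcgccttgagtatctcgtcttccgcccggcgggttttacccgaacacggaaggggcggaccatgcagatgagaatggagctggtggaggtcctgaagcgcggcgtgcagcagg
Ndufa5 (chr6:24527477-24527776, minus strand): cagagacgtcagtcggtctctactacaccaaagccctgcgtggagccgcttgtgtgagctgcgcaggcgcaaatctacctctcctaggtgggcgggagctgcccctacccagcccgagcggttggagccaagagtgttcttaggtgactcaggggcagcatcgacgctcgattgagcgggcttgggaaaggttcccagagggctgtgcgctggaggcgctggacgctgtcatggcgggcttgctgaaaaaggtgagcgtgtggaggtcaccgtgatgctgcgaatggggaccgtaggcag

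CG dinucleotides numbered 7 in the window of Cox7a1 and 20 in that of Cox7a2, and 2 in that of Cox8b and 19 in that of Cox8a. Windows were found for 74 of the 90 genes, 80 windows in all, with a median of 19.5 CG dinucleotides, close to the 20 of the 11150 windows of genes of mean value at least 50. Cox8b and Cox7a1 were among the lowest of the 80, at 2 and 7, with Cox7b at 5 between them. Low CG content was not limited to the muscle isoforms, since Cox7b is a widespread subunit gene and had 2907 on side B and 2733 on side A. Its alternative form Cox7b2 had 10 CG dinucleotides, so this pair lay the other way. Cox6b2 also had 10, below the 17 of Cox6b1.

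Motifs of factors known to bind promoters of respiratory genes were searched on both strands. The palindromic consensus of NRF1, whose letters are the first run of capitals in the Cox6a1 window, was found in 6 of the 80 windows, 7.5%, against 2.06% of the windows of genes of mean value at least 50 and 0.971% of all 32851 windows. These belong to Atp5g2, Atp5k, Cox6a1, Ndufa11, Ndufaf4 and Uqcrc1. YY1 (AAGATGGC, or GCCATCTT on the other strand) was found in 12 windows, 15%, against 4.2% and 2.75%. The ETS core bound by GABP (CCGGAAG, or CTTCCGG) was found in 17 windows, 21.2%, against 16.4% and 8.86%. The genes with an NRF1 match lay on either side of equality, with Uqcrc1 at 4700 on side B and 4883 on side A and Atp5k at 1380 and 1225. Nrf1, Yy1 and Gabpa themselves had 238, 663 and 527 on side B and 266, 702 and 547 on side A.

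Complex V, the ATP synthase, had the largest summed value of the 5 complexes, 84905 on side B and 83549 on side A. Its 17 genes had a median log2 ratio of 0.082, with 14 higher and 3 lower. The catalytic subunit gene Atp5b had 27716 on side B and 28519 on side A, and its partner Atp5a1 had 18624 and 18943. Both had a ratio just under 1. The 9 genes of the F1 head and the stalks summed to 66435 on side B and 66345 on side A. Of these 9, 7 were higher and 2 lower, with a median of 0.064. All 6 genes of the membrane part were higher, with a median of 0.15. Atp5l, which encodes subunit g of the membrane part, had 2428 on side B and 2100 on side A, a ratio of 1.16 and the highest of complex V. Atp5j2, subunit f, had 2241 and 1979.

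The 3 genes of subunit c, which forms the rotating ring and has the same mature protein from each gene, were all higher. Atp5g3 had 7198 on side B and 7001 on side A, Atp5g1 had 2770 and 2615, and Atp5g2 had 1747 and 1593. Their order was the same on both sides, with Atp5g3 the highest, but only Atp5g3 has principal transcripts of like length, so levels are not set between the 3. Atp5sl, counted here by its prefix though it encodes no complex subunit, had 393 on side B and 401 on side A. Atp5s had 313 and 290. The 3 ATP synthase genes that the name rule missed were also higher, with Usmg5 at 1550 on side B and 1310 on side A, the inhibitor gene Atpif1 at 3973 and 3774 and 2010107E04Rik at 1686 and 1663.

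Levels differed by complex once values were divided by transcript length in kilobases, which was done for subunits whose principal transcripts agree in length within 1.5 times. The median value per kilobase was 1588 on side B and 1437 on side A over 33 genes of complex I, 2383 and 2317 over 4 genes of complex II, and 2591 and 2456 over 7 genes of complex III. It was 3851 on side B and 3556 on side A over 12 genes of complex IV and 3720 and 3302 over 11 genes of complex V. The level per kilobase was highest for Atp5b, with 14466 and 14885, and lowest in complex V for Atp5j, a stalk subunit, with 155 and 148. Within complex I by prefix, Ndufa4 had the highest level, 6403 per kilobase on side B and 6262 on side A. That gene is now placed in cytochrome c oxidase, and Ndufb8 came next with 3200 and 2934. Ndufs4 had 744 and 650, the lowest of complex I. The order of the complexes from I to III was the same on both sides, and complex IV lay above complex V on both.

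Reads from near-identical copies and overlapping genes make part of these values uncertain, since the authors' handling of such reads and of strand could not be learned from the sources used here. Of the 90 genes, 42 shared no run of 50 bases of their principal transcripts with transcripts of another gene in GENCODE M21, and 3 shared at least 50% of such runs. These were Atp5g2 at 87.4%, Atp5l at 84.8% and Cox7c, a small subunit of complex IV, at 53%. Ndufa12 shared 26.2%, Cox5b 25.9%, Ndufs5 22.9%, Cox4i1 13.7% and Atp5j 11.2%. Ndufa5, Cox7a1 and Cox8b shared none. The part of shared runs in the low listings of Ndufs5 and Atp5j was not tested.

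The ratio of a gene followed the length of its transcript, within the oxidative phosphorylation genes as over the whole table. Of the 48 with a transcript under 1000 bases, 45 were higher on side B and the median log2 ratio was 0.12. Other genes of that length had a like median of 0.13, but a smaller share of them was higher, 492 of 613 (80.3%) against 93.75%. Of the 14 oxidative phosphorylation genes with at least 1000 but under 1500 bases, 13 were higher, with a median of 0.088. Among other genes of that length 762 of 1034 were higher, with a median of 0.10. Of the 21 oxidative phosphorylation genes with 1500 bases or more, 11 were higher and 9 lower with a median of 0.008. Among other genes of 1500 bases or more, 4674 of 10194 were higher with a median of -0.013. The median transcript was 870.5 bases over the 83 genes and 3045 bases over all genes. Spearman's rho between length and log2 ratio was -0.34 over the 83 genes and -0.31 over 11924 genes, and Pearson's r with log2 length was -0.22 and -0.16. These points share 2 columns, and the correlations are descriptions.

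When each gene's log2 ratio was set against the median of all genes of like transcript length, in 20 bands, the oxidative phosphorylation genes no longer stood above the rest. By complex, the corrected median was 0.03 for complex I, with 22 of 40 genes above 0, and -0.013 for complex II, with 2 of 4. It was -0.043 for complex III, with 1 of 8, -0.029 for complex IV, with 4 of 14, and 0.00033 for complex V, with 9 of 17. Of the accessory subunits of complex I 17 of 29 lay above 0, and of the membrane part of complex V 5 of 6. Ndufa12 kept a corrected log2 ratio of 0.22, Ndufa5 had 0.19, and both were then under a 25% difference. Cox7a1, whose transcript has 393 bases, had -0.74. Ndufs1 had -0.10 and Ndufa10 -0.12. What in the tissue or the libraries differs by transcript length was not tested.

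**Figure D4:**
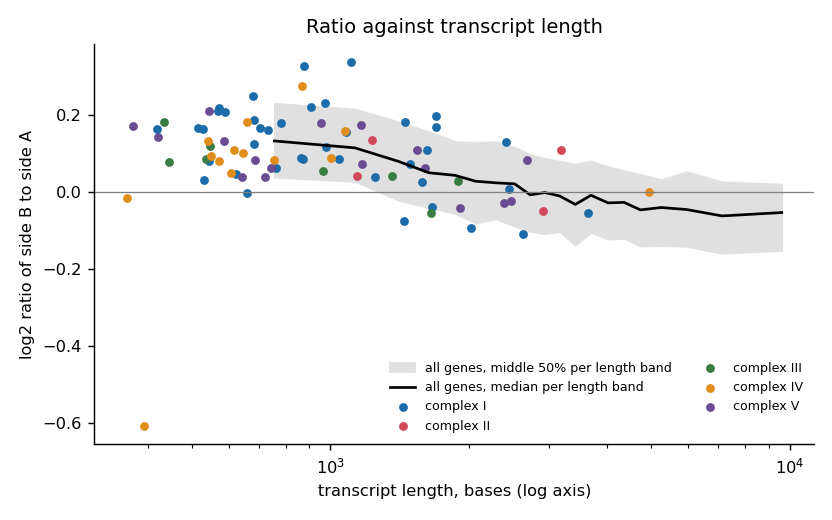
Log2 ratio of side B to side A (vertical axis) against transcript length in bases on a log axis (horizontal), with 1 point for each of the 83 genes, coloured by complex. The black line is the median of all genes in 20 length bands and the grey area their middle 50%. Short transcripts sit above 0 and long ones near or below it, for the oxidative phosphorylation genes as for all genes.

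Genes that serve the same pathway but fall outside the name rule were mixed. Cyc1, the cytochrome c1 gene, belongs to complex III but is missed by its prefix, and had 2718 on side B and 2584 on side A. Cycs, cytochrome c itself, had 3811 and 3861. The 21 complex IV assembly factors had a median of 0.088, with 15 higher and 6 lower, from Cmc1 at 195 and 150 to Cox18 at 196 and 232. Of these 21, 1 was at least 25% higher, Cmc1, against 4.35% of all genes of mean value at least 50. Each of the other lists of assembly factors also held 1 such gene, Nubpl and Sdhaf1. Other complex I assembly factors had a median of 0.041 over 11 genes, from Nubpl, which delivers iron-sulphur clusters, at 157 and 118, to Tmem186 at 414 and 473. Assembly factors of complexes II, III and V had a median of 0.058 over 13 genes, with Sdhaf1 at 154 and 117 and Lyrm7 at 179 and 212. Among the complex IV assembly factors, Pet117 and Sco2 were listed at 0 on both sides.

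The list for the tricarboxylic acid cycle, which feeds complexes I and II, lay the other way. It leaves out the 4 genes of complex II, of which 3 were higher on side B. It also holds genes outside the cycle proper, the pyruvate dehydrogenase genes Pdha1, Pdhb and Dlat and the cytosolic malate dehydrogenase gene Mdh1. Of these, Pdhb was higher on side B and the others were lower. Of the 18 genes of the list, 12 were lower and 6 higher on side B, with a median of -0.063. The median was -0.078 after the length correction, where 3 of 18 lay above 0. The citrate synthase gene Cs had 6144 on side B and 6681 on side A. Idh2, the NADP-dependent isocitrate dehydrogenase, had the highest ratio with 581 and 470. None of the 18 differed by 25% in either direction, against 4.35% of all genes of mean value at least 50 higher and 5.62% lower. The difference between this list and the oxidative phosphorylation genes was not tested.

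Protein import genes had a median of 0.107 over 18 genes, with 15 higher, and 0.085 after the length correction. Timm8b, a chaperone of the intermembrane space, had 714 on side B and 577 on side A, and Timm44, of the import motor, had 590 and 630. Carriers and outer membrane channels had a median of 0.021 over 11 genes, with the pyruvate carrier gene Brp44 at 796 and 687 and the aspartate-glutamate carrier gene Slc25a12 at 3008 and 3463. Regulators of mitochondrial biogenesis were balanced, with 9 higher and 9 lower. Tfam, which packages mitochondrial DNA, had 602 on side B and 538 on side A, Ppargc1a, a coactivator of respiratory genes, had 218 and 236, and its relative Ppargc1b had 48 and 64. Genes of mitochondrial dynamics and mitophagy had 8 higher and 7 lower, with the mitophagy kinase gene Pink1 at 7257 and 6172 and the transport adaptor gene Rhot2 at 2136 and 2325. Mitochondrially encoded subunits were not analysed here.

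**Figure D5:**
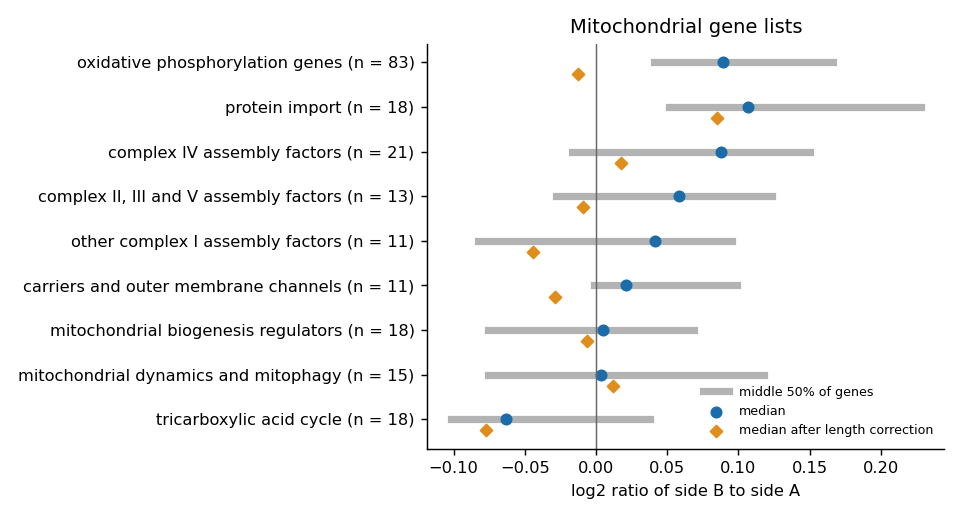
Median log2 ratio of side B to side A (circles), its middle 50% (bars) and the median after the length correction (diamonds) for each list of mitochondrial genes, with n the genes of mean value at least 50. The oxidative phosphorylation genes have a median of 0.089 that drops to -0.013 after the correction, whereas protein import stays at 0.085 and the tricarboxylic acid cycle at -0.078.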

How the data were processed

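RNA was sequenced in 4 pools, 1 for each genotype. Tools named in the submitters' processing notes are HTSeq 0.5.4p1, SAMtools 0.1.19, TopHat2 2.0.8 and DESeq, the last without a version, and the build is mm9. Neither settings nor annotation could be learned from the sources used here. Per the file headers, the table deposited by the authors holds DESeq's columns: 2 group means, taken as a normalised score whose unit is not stated, a fold change and p-values. How many libraries entered a column is not given. These whole numbers were not used as read counts. The fold change deposited by the authors equals side B over side A in all 16501 genes with a finite fold (relative tolerance 1e-09), and the mutant heading stands over the mean of both sides in all 21937. The p-value and adjusted p-value are the authors' own, copied from the deposited table. DESeq was run by the authors, and no count model or test was run here.

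Log2 ratios of side B to side A took a pseudocount of 1, which understates ratios of low genes, and genes of mean value at least 50 were summarised. Transcript length is the median over APPRIS principal transcripts in GENCODE M21, found for all 90 genes and 11924 of 12043. The correction subtracts the median of all genes in each of 20 length bands, and was checked on simulated data with a planted slope. Promoter windows come from RefSeq (GRCm38.p6). Its build differs from mm9, so no other coordinates are given. Genes were named by a rule: the isoforms, the highest values and extreme ratios of each complex, genes at least 25% apart, and the extremes of each other list; others were named as partners of these, after their values were seen. Some genes are not reported here. The gene set and lists were chosen with earlier results of these data known. Of 219 list entries 218 matched a symbol, partly through synonyms, and 3 of these named the same row as another entry, which left 215 genes. Python 3.11.15, pandas 2.3.3 and matplotlib 3.10.9 were used.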

Additional observations from a re-analysis of the deposited data

How the results depend on the processing

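No paired analysis was possible because the table has 1 column a side. A log2 median was taken as moved at a shift of 0.05 or more, a count at over 1.5 times. The direction of the group depended on the length correction, which took the median of the 83 genes to -0.013, the number higher to 38 and the number at least 25% higher to 0. The medians of complexes I to V became 0.0299, -0.0132, -0.0434, -0.0288 and 0.000328. Those of other complex I assembly factors, of complex II, III and V assembly factors, of complex IV assembly factors, of carriers and channels, and of ATP synthase proteins outside the name rule became -0.0444, -0.00918, 0.0173, -0.0288 and -0.0586. With the longest principal transcript, chosen after seeing the data, the group had -0.00673, 40 and 0, and the complexes 0.0307, -0.00916, -0.024, -0.0343 and 0.00109. With coding length, also chosen afterwards, they had 1.71e-05, 42 and 0, and 0.034, 0.0031, -0.0342, -0.0286 and -0.00195.

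At a minimum mean value of 500, 75 of the 90 were left, 0 were at least 25% lower, and the medians of other complex I and of complex IV assembly factors were -0.0825 and 0.0332. Without a minimum, over the 89 genes not at 0 on both sides, 4 were higher and 3 lower by 25%. Without Cox6a2, Cox7a1 and Cox8b, 0 were lower. At 1.5-fold, 0 were higher. A pseudocount of 10, equal column sums and a minimum of 20 moved none of the group, complex and list values, and subunits alone, run for the whole group only, moved none of its 4 values. Depth is unknown, so no counting error can be given, and low genes such as Cox6a2 rest on very small values.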
